A study of Saccharomyces cerevisiae with 8 samples.

Results

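Evolved strain 3 was compared with evolved strain 1, both of them isolates of budding yeast, Saccharomyces cerevisiae. The 2 arrays titled as strain 3 were set against the 2 titled as strain 1, so 4 of the 8 arrays of the study enter the comparison. All 5449 genes with a probe set annotated to 1 gene were measured, and such a set may still detect related genes. The study kept cultures of a laboratory strain, named BY4742 in the labels, in 100 ml of complete medium with 2% glucose and 0.5% ammonium sulfate at 30 °C, and moved 10 µl to fresh medium each day. Evolved strains 3, 1 and 2 are individual isolates taken after approximately 450 generations, and the parental strain is the fourth group, with 2 arrays each. Strains 3 and 1 therefore share the parent, the medium and the length of culture. The labels do not say how the isolates are related to one another, at which stage of growth RNA was taken, or whether the 2 arrays of a strain came from separate cultures, so a p-value here speaks of the spread from array to array, which may be technical. The study was laid out to set the evolved isolates against their parent, and the comparison here sets 2 of the isolates against each other.

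In glucose medium budding yeast ferments sugar to ethanol and represses respiration, the use of other sugars and the making of glucose from acetate or ethanol. As glucose runs low it takes up the remainder through high-affinity hexose transporters, turns to respiration, lays down trehalose and glycogen and slows the making of ribosomes. Isolates from the same culture regime can differ in any of these programmes, as well as in single genes altered in one lineage. Levels below are log2 intensities, in which a difference of 1 is a 2-fold difference, and differences are strain 3 minus strain 1.

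Strains 3 and 1 differed in many genes and, with a single exception, by little. In limma, at an adjusted p under 0.05, 3132 of 5449 genes (57.5%) were called, 1804 of them higher in strain 3 (33.1%) and 1328 lower (24.4%). With each array centred on its own median, where array medians were 9.62 in strain 3 and 9.56 in strain 1, 1368 were higher and 1722 lower, so the split by direction depends on that scaling. The median size of a called difference was 0.26, and 3022 of the called genes (96.5%) differed by less than 1.5-fold. At least 1.5-fold differences numbered 74 rises and 36 falls, and PRP16 alone passed 2-fold. Arrays of the same strain lay close together, with a median standard deviation between the 2 arrays of 0.027 in strain 3 and 0.028 in strain 1, which is why differences of this size passed the test. The arrays of the 2 strains did not overlap in any of the 3132 called genes, but they did not overlap in 84.6% of all genes either. In whole cultures, fewer cells of a kind and less RNA per cell cannot be told apart.

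The size and direction of the difference followed the length of the gene. Across the 5449 genes, the strain 3 minus strain 1 difference correlated with log2 coding length at r = 0.46, and each of the 4 pairs of a strain 3 and a strain 1 array gave 0.44 to 0.46. Between the 2 arrays of strain 3 the same correlation was 0.03, and between the 2 of strain 1 it was 0.01. Between the 2 arrays of strain 2 it was -0.16, and between the 2 parental arrays 0.06. Strain 2 minus strain 1 gave 0.38 and strain 3 minus strain 2 gave 0.10. Genes are not independent replicates. Among 665 genes with a coding length over 300 and up to 600 nt, 35 were called higher and 420 lower, with a median difference of -0.18. Among 767 genes over 2000 and up to 3000 nt, 434 were higher and 34 lower, the median being 0.18. Control probe sets differed as well. The 5.8S ribosomal RNA stood at 9.80 and 9.85 in strain 3, against 8.79 and 8.93 in strain 1, and the 3′ probe set of 25S ribosomal RNA at 13.40 and 13.45, against 12.78 and 12.86. For 7 transcripts with probe sets at both ends, the gap between the 3′ and 5′ sets was larger in strain 3 for 4 and smaller for 3, with a median shift of 0.07. The part of RNA quality in the differences between the strains was not tested. Because of this relation, the counts of each gene group below are also given after the smooth trend of each array with coding length was removed, called length-adjusted here. That step, chosen after the data were seen, left 2299 called genes (42.2%), 1456 higher (26.7%) and 843 lower (15.5%). Of these, 1715 had been called in the same direction and 16 in the opposite one. Group counts below are to be read beside the shares over all genes, 33.1% higher and 24.4% lower as measured. Counts with each array centred are to be read beside 1368 higher and 1722 lower of all 5449 genes. A group near those shares does not stand out.

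**Figure D1:**
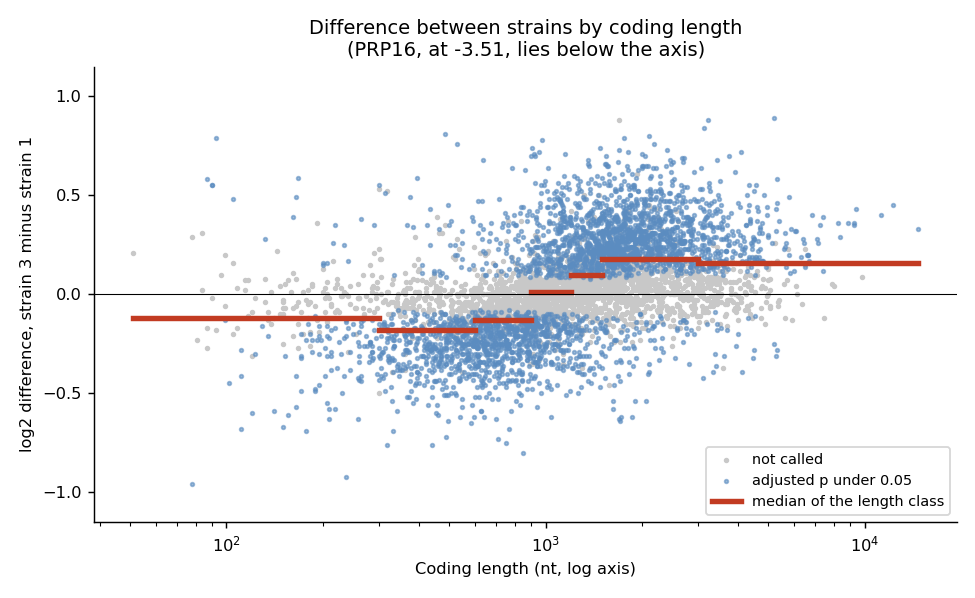
Log2 difference, strain 3 minus strain 1, of each gene (y axis, 1 point per gene) against its coding length in nt (log x axis); blue points passed an adjusted p under 0.05 and red bars are medians of length classes. Class medians lie between -0.18 and -0.12 up to 900 nt and between 0.10 and 0.18 above 1200 nt.

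PRP16, the RNA helicase that drives the second step of pre-mRNA splicing, had the largest difference. It stood at 8.27 and 8.27 in strain 3, against 11.75 and 11.80 in strain 1, a difference of -3.51 ± 0.03 (log2, SE, n = 2 arrays each), or 11.4-fold lower in strain 3, with an adjusted p of 3.33e-08 in limma. Strain 2 stood at 8.17 and 8.17 and the parental strain at 8.66 and 8.69. The high level was therefore that of strain 1, and the other 6 arrays lay within a narrow range. The genes on either side of it on its chromosome did not pass the test in limma. MRPL20, a mitochondrial ribosomal protein gene, differed by -0.08 (adjusted p = 0.08), and OMA1, which encodes a mitochondrial protease, by -0.08 (adjusted p = 0.198). Among 71 genes of pre-mRNA splicing, 15 were higher and 33 lower in strain 3, the median being -0.09, against 0.04 over all genes. Length-adjusted, 7 were higher and 22 lower. Besides PRP16, PRP21 was lower (-0.44), while the branch-point binding protein gene MSL5 and the U1 component gene NAM8 were higher by 0.56 and 0.65.

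The other large falls were mostly of short genes. RPL41A, a gene for the smallest protein of the large ribosomal subunit, had the largest of them, at 8.99 and 9.12 in strain 3 against 10.49 and 9.53 in strain 1, a difference of -0.96 ± 0.27 (log2, SE). Its 2 strain 1 arrays lay far apart, and the call was lost when either strain 3 array was left out (adjusted p = 0.0985 without replicate 1 and 0.0686 without replicate 2 in limma). Without strain 1 replicate 1 the difference was -0.48 (adjusted p = 0.0106). HTL1, a subunit gene of the RSC chromatin remodelling complex, stood at 8.35 and 8.46 in strain 3 and at 9.40 and 9.24 in strain 1, 1.89-fold lower (adjusted p = 0.000308). Parental arrays lay between, at 9.03 and 8.96, and strain 2 was lower than all of these, at 7.78 and 7.89. Its neighbours PET18 and MAK31 differed by -0.27 and -0.13 (-0.08 and 0.05 length-adjusted), whereas HSP30, on its other side, was higher by 0.57. RHB1, further along, was lower (-0.59, and -0.40 length-adjusted). The low level in strain 2 was shared by nearby genes. Strain 2 minus strain 1 was -1.17 for MAK32, -1.07 for PET18 and -1.20 for RHB1, though 0.01 for HSP30. ADY2, the acetate permease gene, stood at 9.39 and 9.38 in strain 3 and at 10.20 and 10.18 in strain 1. Strain 2 (10.11 and 10.14) and the parental strain (9.96 and 9.96) were on the side of strain 1, so the low level of ADY2 was that of strain 3.

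ZPS1, a gene induced by low zinc, stood at 8.40 and 8.47 in strain 3, against 9.20 and 9.18 in strain 1. SWM2, needed for maturing the cap of small nuclear RNAs, differed by -0.76 and CSN9, a subunit gene of the COP9 signalosome, by -0.72. STE18, the gamma subunit of the pheromone-signalling G protein, was lower (-0.69), as was FRM2, a nitroreductase-like gene (-0.65). The falls of ICS2 (-0.68) and of the uncharacterised genes YML108W (-0.76), YIR042C (-0.73), YDR034C-A (-0.69) and YKL096C-B (-0.67) complete the 14. All 14 had adjusted p-values of at most 0.0219 in limma, and their median coding length was 465 nt, against 1728 nt for the 14 largest rises. Length-adjusted, all of these falls except YKL096C-B were still called. YKL096C-B (-0.52, adjusted p = 0.0591) was not, nor was it called without strain 3 replicate 1 (adjusted p = 0.0938) or strain 1 replicate 1 (0.105).

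RPO21 and MPT5 had the largest rises among the called genes. RPO21, the largest subunit of RNA polymerase II, stood at 9.23 and 9.24 in strain 3 and at 8.32 and 8.39 in strain 1, 1.85-fold higher in strain 3, with a difference of 0.89 ± 0.05 (log2, SE) and an adjusted p of 0.000308 in limma. MPT5, which encodes the messenger-RNA repressor Puf5, stood at 9.11 and 9.03 in strain 3, against 8.09 and 8.28 in strain 1, and strain 2, at 9.07 and 9.10, lay at the level of strain 3. NAB3, which acts in the termination of non-coding transcription, differed by 0.73, and HCM1, a forkhead transcription factor of S phase, by 0.73. Both calls were fragile. NAB3 was not called without strain 3 replicate 1 or strain 1 replicate 2 (differences of 0.59 and 0.67). HCM1 was lost when any of the 4 arrays was left out, with differences of 0.64 to 0.81. The SD between the parental arrays, which enter the pooled spread of the fit, was 0.32 for NAB3 and 0.47 for HCM1. In strains 3 and 1 it was 0.21 and 0.095 for NAB3, and 0.12 and 0.068 for HCM1.

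HBT1, whose protein shapes the mating projection, stood at 10.86 and 10.79 in strain 3 and at 9.97 and 10.00 in strain 1. CDC5, the polo kinase of mitosis, stood at 6.94 and 6.89 in strain 3, against 6.03 and 6.21 in strain 1. TPO1, a polyamine exporter gene, differed by 0.79, and PIR3, a cell wall protein gene, stood at 12.72 and 12.66, against 11.93 and 11.90. GND2, an isozyme of the oxidative pentose phosphate branch, differed by 0.74, and NFI1, a SUMO ligase gene, by 0.76. The zinc-finger gene LEE1 (0.74) and the uncharacterised YFL068W (0.81), YGL262W (0.76) and YDL218W (0.72) complete the 14 rises. The arrays of the 2 strains did not overlap in any of these 28 genes, which the naming rule required. YFL068W lost its call without strain 3 replicate 2 or strain 1 replicate 1 (adjusted p = 0.0748 and 0.0777).

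**Figure D2:**
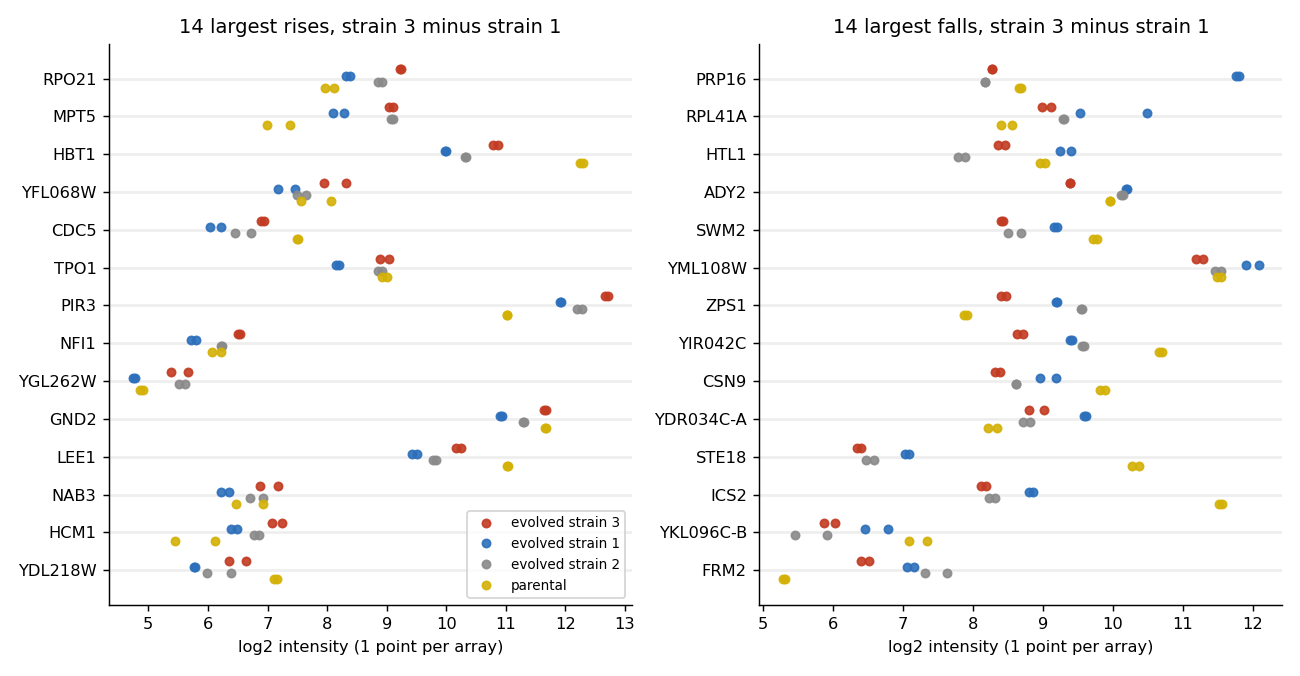
Log2 intensity on each array (x axis, 1 point per array) of the 14 genes with the largest rises (left) and the 14 with the largest falls (right) in strain 3 minus strain 1, with strain 2 and the parental strain for reference. Strain 1 alone is high for PRP16, at 11.75 and 11.80, and strain 3 alone is low for ADY2, at 9.39 and 9.38.

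Glucose transport differed by carrier. HXT1, the low-affinity transporter gene induced by high glucose, stood at 7.25 and 7.09 in strain 3, against 7.86 and 7.76 in strain 1, a difference of -0.64 ± 0.12 (log2, SE; adjusted p = 0.00473 in limma). HXT2, a high-affinity carrier, stood at 9.02 and 9.02 in strain 3 and at 9.56 and 9.55 in strain 1. Its adjusted p was 0.0455 in limma. The call was lost when any of the 4 arrays was left out, though the difference stayed between -0.54 and -0.53. The parental arrays, which enter the pooled spread of the fit, lay far apart for HXT2, at 5.57 and 4.9. Their SD was 0.47, against 0.0 in strain 3 and 0.0052 in strain 1. HXT11 was lower as well, at 6.17 and 6.47 against 7.04 and 6.85, and its call was lost without strain 3 replicate 1 (adjusted p = 0.0751) or strain 1 replicate 1 (0.077). In the opposite direction HXT5, a transporter of slow growth and stationary phase, stood at 12.45 and 12.48 in strain 3, against 12.10 and 12.11 in strain 1, a difference of 0.36.

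The calls of 2 further carriers were fragile. HXT7, with high affinity, stood at 13.83 and 13.85 in strain 3 and at 13.66 and 13.73 in strain 1, a difference of 0.15. HXT4 differed by 0.21 and HXT9 by 0.25, though a further probe set of HXT9 gave -0.0. The calls of HXT4 and HXT7 were lost when strain 3 replicate 2 (adjusted p = 0.0553 and 0.0511) or strain 1 replicate 1 (0.0611 and 0.0507) was left out, and when length-adjusted (0.193 and 0.614). HXT3 stood at 12.27 and 12.28 in strain 3, against 12.28 and 12.30 in strain 1, and did not pass the test (-0.02, adjusted p = 0.639); length-adjusted it was lower (-0.14) (adjusted p = 0.00888). HXT13 stood at 5.01 and 4.71 in strain 3 and was at background in strain 1, so that it was at least 1.38-fold higher in strain 3, without passing the test (adjusted p = 0.0611), and a further probe set differed by 0.46. It passed in a fit to the 4 arrays of strains 3 and 1 (adjusted p = 0.00582). HXT17 and the galactose permease gene GAL2 differed by -0.07 and 0.13 and did not pass, and neither strain had HXT8, HXT10, HXT14 or HXT15 above background. In all, 4 of 15 hexose transporters were higher and 3 lower, near the shares over all genes (33.1% and 24.4%), so the group as a whole does not stand out. Length-adjusted, 2 were higher and 4 lower.

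Genes of glucose sensing and repression were called more often higher than lower in strain 3, 25 against 5 of 39, with a median of 0.15. Length-adjusted, 15 were higher and 4 lower, the median being 0.08. BCY1, the inhibitory subunit of protein kinase A, stood at 11.41 and 11.44 in strain 3 and at 10.97 and 10.99 in strain 1. CAT8 and HAP4, activators of gluconeogenic and respiratory genes, were higher by 0.42 and 0.39, and SIP1, a subunit gene of the Snf1 kinase, by 0.42. Genes for using other sugars were higher in 10 of 13 and lower in 1, with a median of 0.36; length-adjusted, 8 were higher and 1 lower, the median being 0.25. Among them the maltose transporter genes MAL11 and MAL31 were higher by 0.45 and 0.41. The isomaltase gene IMA5 was higher by 0.47, a call lost when length-adjusted (adjusted p = 0.0645 in limma) and after quantile normalization (0.0772). It was also lost without strain 3 replicate 1 (difference 0.41), strain 1 replicate 1 (0.50) or strain 1 replicate 2 (0.44). The exception, GAL10, a galactose enzyme near background, stood at 4.57 and 4.68 in strain 3, against 5.03 and 5.02 in strain 1. Its call was lost without strain 3 replicate 1 (difference -0.35) or either strain 1 array (-0.39 and -0.41). For both genes the parental arrays, which enter the fit, lay further apart (SD 0.29 and 0.22) than those of strain 3 (0.081 and 0.078) or strain 1 (0.047 and 0.0088).

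Several groups of central carbon genes were called mostly higher in strain 3. In glycolysis 9 of 16 genes were called higher and none lower, and the length-adjusted counts were 10 and 0. PFK1 and PFK2, the subunits of phosphofructokinase, stood at 11.64 and 11.67 and at 11.51 and 11.55 in strain 3, against 11.22 and 11.16 and 11.15 and 11.14 in strain 1. Phosphoglucose isomerase, PGI1, was higher by 0.40 and phosphoglycerate kinase, PGK1, by 0.26. In the pentose phosphate pathway 7 of 11 were higher and 1 lower, and 8 and 1 when length-adjusted. The minor isozyme genes GND2 and TKL2 (transketolase) were higher by 0.74 and 0.70, and ZWF1, the entry enzyme, by 0.32. RKI1, the ribose-5-phosphate isomerase gene, was the exception, at 9.92 and 9.89 in strain 3, against 10.51 and 10.48 in strain 1.

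Genes of ethanol and acetate metabolism were higher in 11 of 15 and lower in 1; length-adjusted, 7 were higher and 1 lower. The stress-induced aldehyde dehydrogenase gene ALD3 was higher by 0.49, the minor pyruvate decarboxylase gene PDC6 by 0.34 and the acetyl-CoA synthetase gene ACS2 by 0.28. ALD6, which makes most cytosolic acetate, was lower, at 10.67 and 10.58 in strain 3, against 11.00 and 10.99 in strain 1. Of 23 genes of gluconeogenesis and the glyoxylate cycle, 10 were higher and 7 lower (6 and 8 with each array centred, 7 and 7 length-adjusted). ADY2 and the malate synthase gene MLS1 (-0.34) were among the falls, and the malate dehydrogenase gene MDH2 (0.39) and VID24, an adaptor for breakdown of gluconeogenic enzymes (0.35), among the rises.

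In mitochondria the tricarboxylic acid cycle genes were mostly higher, with 15 of 19 genes called higher and none lower (13 and 1 with each array centred), and a median of 0.26. The length-adjusted counts were 14 and 0, with a median of 0.22. ACO1, aconitase, stood at 12.68 and 12.67 in strain 3 and at 12.20 and 12.15 in strain 1. SDH1 and KGD1, subunits of succinate and ketoglutarate dehydrogenase, were higher by 0.47 and 0.44, and SHH3, a homologue of a succinate dehydrogenase subunit, by 0.37. For the respiratory chain the count changed with the length adjustment. As measured, 12 of 40 genes were higher and 8 lower (10 and 19 with each array centred), the median being -0.03. Length-adjusted, 31 were higher and none lower, the median being 0.17; the median coding length of these genes is 465 nt. NDI1, the internal NADH dehydrogenase, stood at 11.59 and 11.54 in strain 3, against 10.82 and 10.91 in strain 1, and CYT1, cytochrome c1, at 11.88 and 11.80, against 11.14 and 11.14. COR1, a core subunit of the same complex, was higher by 0.53. These rises were called with and without the length adjustment.

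**Figure D3:**
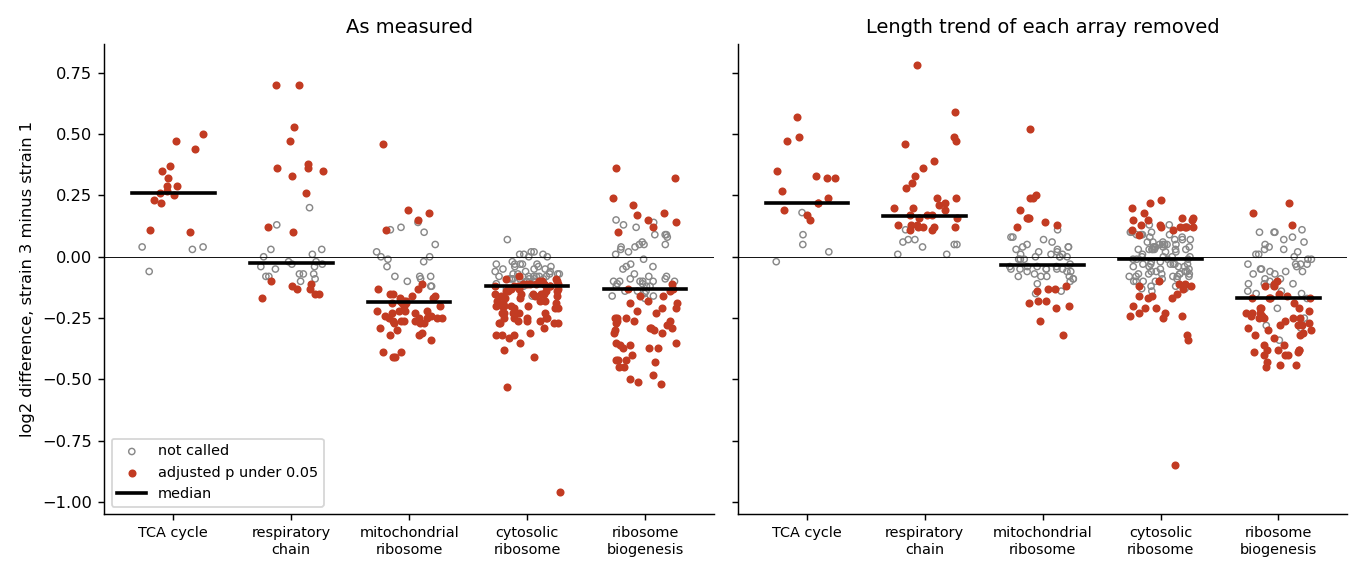
Log2 difference, strain 3 minus strain 1, of every measured gene of 5 groups (y axis, 1 point per gene, filled where called), as measured (left) and with the length trend of each array removed (right); bars are medians. The median of the tricarboxylic acid cycle is 0.26 and 0.22 in the 2 panels, that of the respiratory chain -0.03 and 0.17, and that of cytosolic ribosomal proteins -0.12 and -0.01.

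Ribosomal protein genes were lower in strain 3 as measured. Of 128 genes for cytosolic ribosomal proteins, 78 were lower and none higher, with a median of -0.12, and of 70 for the mitochondrial ribosome 47 were lower and 5 higher, with a median of -0.19. RPS22A stood at 12.13 and 12.17 in strain 3, against 12.65 and 12.70 in strain 1, and RPS28B and RPS19A were lower (-0.41 and -0.38). In the mitochondrial group MRP2 and MRPS5 (-0.41 each) and RSM27 (-0.39) were lower, and MRPL4 was higher by 0.46. Both groups consist mostly of short genes, with median lengths of 771 and 706 nt, against 1236 nt over all genes. These lengths include any intron, so genes with introns were adjusted as longer than their coding sequence. The length-adjusted counts were 19 higher and 22 lower for the cytosolic and 11 higher and 11 lower for the mitochondrial ribosome. Genes for the RNA polymerase subunits moved likewise, with 5 higher and 19 lower of 31 as measured and 3 higher and 5 lower length-adjusted. The large subunit genes RPO21 (0.89) and RPA135 (0.39) were higher, and RPC40 (-0.47) and RPC25 (-0.45) were lower.

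More ribosome biogenesis factors were lower than higher, with and without the length adjustment. Of 101 genes, 46 were lower and 10 higher, with a median of -0.13, and the length-adjusted counts were 51 lower and 3 higher, with a median of -0.17. TSR2, which escorts a small-subunit protein, stood at 8.19 and 8.12 in strain 3 and at 8.66 and 8.68 in strain 1. RRP1, of large-subunit assembly (-0.51), UTP30 (-0.50) and IMP4, of the small-subunit processome (-0.48), were lower. Translation factors were higher in 18 of 39 and lower in 6, and in 11 and 2 when length-adjusted. The initiation factor gene NIP1 was higher by 0.51, and ANB1, the hypoxic form of eIF5A, was lower (-0.48). Aminoacyl-tRNA synthetase genes were higher in 13 of 20 with none lower (10 and 1 with each array centred); length-adjusted, 4 were higher and 1 lower. FRS2 and DPS1 were higher by 0.39 and 0.37.

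Storage carbohydrate and cytosolic chaperone genes were mostly called higher as measured. For trehalose and glycogen, 22 of 26 genes were higher and 1 lower, the median being 0.24; length-adjusted, 13 were higher and none lower. GAC1, which targets a phosphatase to glycogen synthase, stood at 11.03 and 11.01 in strain 3, against 10.36 and 10.38 in strain 1. TSL1, of the trehalose synthase, was higher by 0.46 and GLG2, a glycogenin gene, by 0.40. Cytosolic chaperone genes were higher in 26 of 44 and lower in 6, and in 18 and 5 when length-adjusted. HSP30, a membrane heat-shock protein gene, stood at 13.52 and 13.53 in strain 3, against 12.96 and 12.95 in strain 1, HSP82 (Hsp90) was higher by 0.52 and SSE2 by 0.52, while SNL1 was lower (-0.51).

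In oxidative stress defence 12 of 35 genes were higher and 9 lower, near the shares over all genes (33.1% and 24.4%). With each array centred, 8 were higher and 14 lower, and length-adjusted 21 were higher and 1 lower. SKN7, a transcription factor of that response, was higher by 0.61, GSH1, of glutathione synthesis, by 0.46 and the glutaredoxin gene GRX4 by 0.36, and the peroxidase gene GPX2 was lower (-0.51). Of the osmotic response and glycerol genes, 13 of 28 were higher and 2 lower, with the same counts when length-adjusted and with MSN4, a general stress activator, higher by 0.53 and GUT2, a glycerol-3-phosphate dehydrogenase gene, by 0.52. Proteasome genes were higher in 12 and lower in 10 of 37, also near the shares over all genes (8 and 16 with each array centred). Length-adjusted, 15 were higher and 2 lower, and RPN1 and BLM10 were each higher by 0.28. The endoplasmic reticulum folding genes were higher in 8 of 23 and lower in 4, against 33.1% and 24.4% of all genes (4 and 1 length-adjusted). HAC1, the activator of the unfolded protein response, was higher by 0.55. For the vacuolar ATPase, 5 of 18 were higher and 10 lower, and 3 and 1 when length-adjusted.

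Amino acid uptake genes were mostly higher, with 22 of 30 permease and sensor genes called higher and 3 lower, and a median of 0.24. The length-adjusted counts were 13 and 6. SSY1, the external amino acid sensor, stood at 8.31 and 8.32 in strain 3 and at 7.81 and 7.84 in strain 1, and its partner SSY5 was higher by 0.40. UGA4, the permease for gamma-aminobutyrate, was lower (-0.44). Branched-chain synthesis genes were higher in 10 of 13 with none lower, and in 6 with none lower when length-adjusted. Their regulator LEU3 was higher by 0.41. Sulfate assimilation and methionine genes were higher in 21 of 39 and lower in 3, with the sulfate permease SUL2 higher by 0.52, and one-carbon genes in 9 of 19 and lower in 2, with MET13 higher by 0.65. Length-adjusted, these counts were 10 and 0 for the sulfate and methionine genes and 8 and 1 for the one-carbon genes. The lysine (5 higher and 1 lower of 10), aromatic (5 and 2 of 15), arginine (5 and 2 of 13), histidine (2 and 2 of 7) and serine, homoserine and threonine (5 and 2 of 12) groups had smaller counts. Length-adjusted, they were 3 and 0, 2 and 2, 3 and 2, 2 and 2, and 3 and 1 in the same order. In the serine group GLY1, threonine aldolase, was higher by 0.48, and CHA1, the catabolic serine deaminase, lower (-0.46).

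Nitrogen control genes were split. GAT1, an activator of nitrogen-catabolite genes, stood at 10.04 and 10.04 in strain 3, against 9.37 and 9.40 in strain 1, while DAL80, a repressor of such genes, was lower (-0.43). In the ammonium and glutamate group 8 of 21 were higher and 4 lower, and in the allantoin and urea group 4 of 12 were higher and 2 lower. Both are near the shares over all genes (33.1% and 24.4%). Length-adjusted, falls outnumbered rises in both, with 6 higher and 8 lower in the ammonium group and 2 higher and 3 lower in the allantoin group. DAL3 and DAL4 of allantoin use were lower (-0.56 and -0.54), and their activator DAL81 was higher by 0.62. Of 23 purine genes, 6 were higher and 3 lower, and 5 and 3 when length-adjusted. AAH1, adenine deaminase, stood at 8.96 and 8.92 in strain 3, against 9.56 and 9.55 in strain 1, with strain 2 at 10.41 and 10.42. Guanine nucleotide genes were higher in 1 of 8 and lower in 3; pyrimidine genes were higher in 3 of 17 and lower in 7. Neither excess of falls was there when length-adjusted, with no guanine gene called and 3 pyrimidine genes higher and 2 lower.

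Among the metals, ZRT1, the high-affinity zinc transporter gene, stood at 12.23 and 12.26 in strain 3, against 12.63 and 12.62 in strain 1, and with ZPS1 was 1 of 2 falls among 25 zinc genes, of which 7 were higher; length-adjusted, 6 were higher and 4 lower. Iron uptake genes were higher in 16 of 36 and lower in 5 (11 and 5 length-adjusted), with the ferroxidase gene FET5 higher by 0.45 and the reductase gene FRE1 lower (-0.54). For phosphate starvation 6 of 28 were higher and 5 lower, but 5 higher and 7 lower when length-adjusted. VIP1, an inositol pyrophosphate synthase gene, was higher by 0.43, and PHM6 and the phosphate transporter gene PHO89 were lower (-0.49 and -0.34). Heme and oxygen genes were higher in 13 of 27 and lower in 4 (12 and 2 length-adjusted); HEM13 and HEM1, of heme synthesis, were higher by 0.55 and 0.53. Ergosterol genes were higher in 16 of 32 and lower in 4 (13 and 3 length-adjusted), with HMG2 higher by 0.42. Phospholipid genes were higher in 13 of 27 and lower in 3. Fatty acid genes were higher in 7 of 22 and lower in 5, near the shares over all genes (33.1% and 24.4%). Peroxisome genes were higher in 12 of 31 and lower in 6, with the thiolase gene POT1 higher by 0.51. Length-adjusted, the phospholipid counts were 10 and 3, the peroxisome counts 8 and 2, and among fatty acid genes 2 were higher and 4 lower. Of 22 vitamin B genes 6 were higher and 5 lower, also near the shares over all genes (3 and 3 length-adjusted). Of 7 biotin genes 2 were higher and none lower (3 and 2 length-adjusted). With each array centred, falls outnumbered rises among the zinc (4 and 3), phosphate (6 and 4), fatty acid (6 and 3) and vitamin B (8 and 3) genes, and likewise among the purine (6 and 5), arginine (3 and 2), histidine (4 and 2), allantoin (3 and 2) and a-specific (3 and 2) genes. Falls outnumbered rises over all 5449 genes too in that setting, 1722 against 1368, so this excess is not particular to these groups. Drug resistance genes were higher in 12 of 24 and lower in 1 (11 and 2 length-adjusted), with PDR15, an efflux pump gene, higher by 0.44 and TPO3 lower (-0.62).

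**Figure D4:**
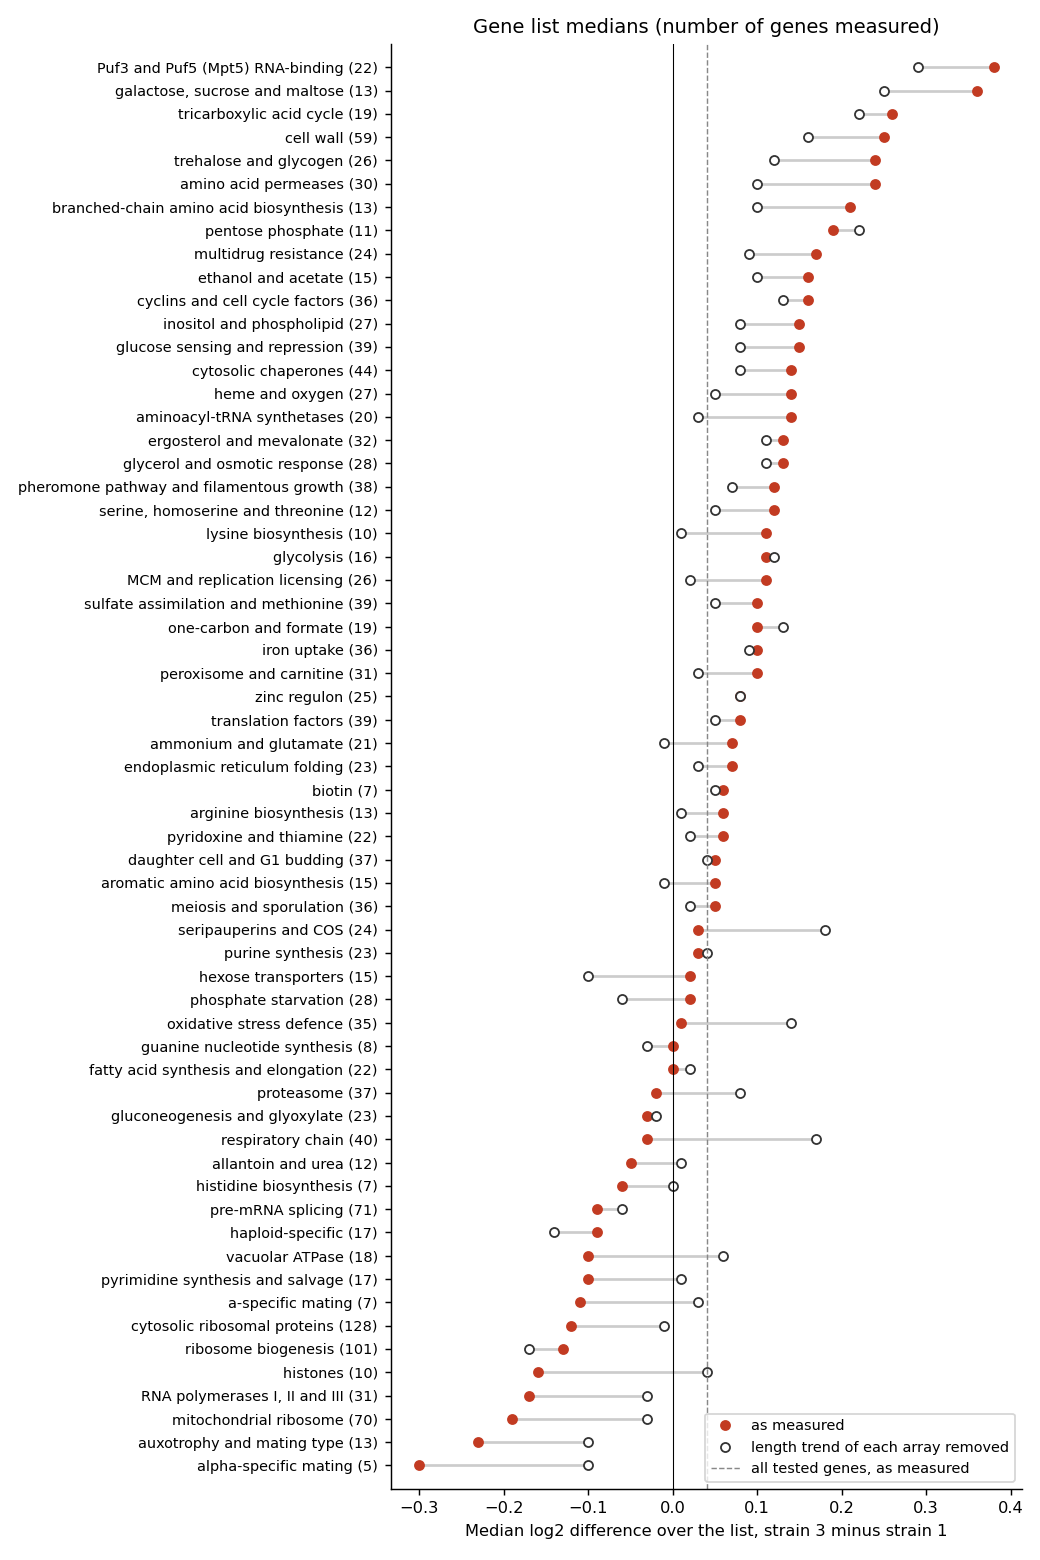
Median log2 difference, strain 3 minus strain 1 (x axis), over each of 61 gene groups (y axis, with the number of genes measured), as measured (filled) and with the length trend of each array removed (open); the dashed line is the median of all genes, 0.04. The RNA-binding list, written like the others with earlier results known, lies highest, at 0.38 and 0.29. The respiratory chain moves between -0.03 and 0.17.

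RNA-binding and mRNA decay factors, a list named for Puf3 and Puf5, had the highest median among the 61, at 0.38. Of 22 genes, 16 were higher and 1 lower. Length-adjusted, the median was still the highest, at 0.29, with 12 higher and 1 lower. The lists were written with earlier results of these data known, and MPT5 is a member. The rank of the group is therefore not a test of it. SSD1, a translational repressor of wall protein mRNAs, stood at 10.94 and 10.86 in strain 3, against 10.17 and 10.24 in strain 1. CCR4, the mRNA deadenylase, was higher by 0.67 and MPT5 and NAB3 by 0.88 and 0.73. The 1 fall was of PUF6, of the same family of proteins as Puf5 (-0.10).

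The cell wall was another group with many rises. Of 59 genes, 36 were higher and 4 lower, the median being 0.25; length-adjusted, 32 were higher and 6 lower. PIR3 had the largest rise. FLO11, the adhesin of filamentous growth, stood at 6.40 and 6.35 in strain 3 and at 5.65 and 5.67 in strain 1. EXG2, a glucanase gene, was higher by 0.67 and GAS5, a glucan-remodelling enzyme gene, by 0.60. Pheromone and filamentous growth genes were higher in 17 of 38 and lower in 3, and in 14 and 3 when length-adjusted. MSB2, an osmosensor of the filamentous pathway, stood at 6.19 and 6.05 in strain 3, against 5.52 and 5.48 in strain 1, and MGA1, AGA1 and SFL1 were higher by 0.65, 0.64 and 0.52.

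Daughter cell and budding genes were divided. Of 37, 13 were higher and 12 lower, against 33.1% and 24.4% of all genes (12 and 13 with each array centred, and 11 and 12 length-adjusted). HBT1, PIR3, GIC2 (0.71), an effector of the budding switch Cdc42, and MSB2 had the largest differences, all higher. The 12 lower genes, listed after their values were seen, were EGT2, CTS1, DSE1, DSE3, DSE4, SCW11, SUN4, AMN1, ASH1, BUD9, AXL1 and BEM3. Not all of the 13 higher genes are named here. Most of the 12 lower genes act in daughter cells or in the separation of mother and daughter, but the list was named for such genes. CTS1 is the chitinase that cuts the septum, DSE4 and SCW11 are glucanases, and ASH1 is the repressor confined to daughter nuclei. DSE1 stood at 9.60 and 9.56 in strain 3, against 10.17 and 10.22 in strain 1, a difference of -0.62. SCW11 stood at 9.76 and 9.73, against 10.27 and 10.38, and CTS1 at 10.72 and 10.68, against 11.11 and 11.11. Their length-adjusted differences were larger, at -0.74, -0.69 and -0.53, since these are genes over 1500 nt long, for which the subtracted trend is positive. DSE2 did not pass the test (0.07, adjusted p = 0.615), and PIR1, which is also expressed as cells leave mitosis, was higher by 0.48.

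**Figure D5:**
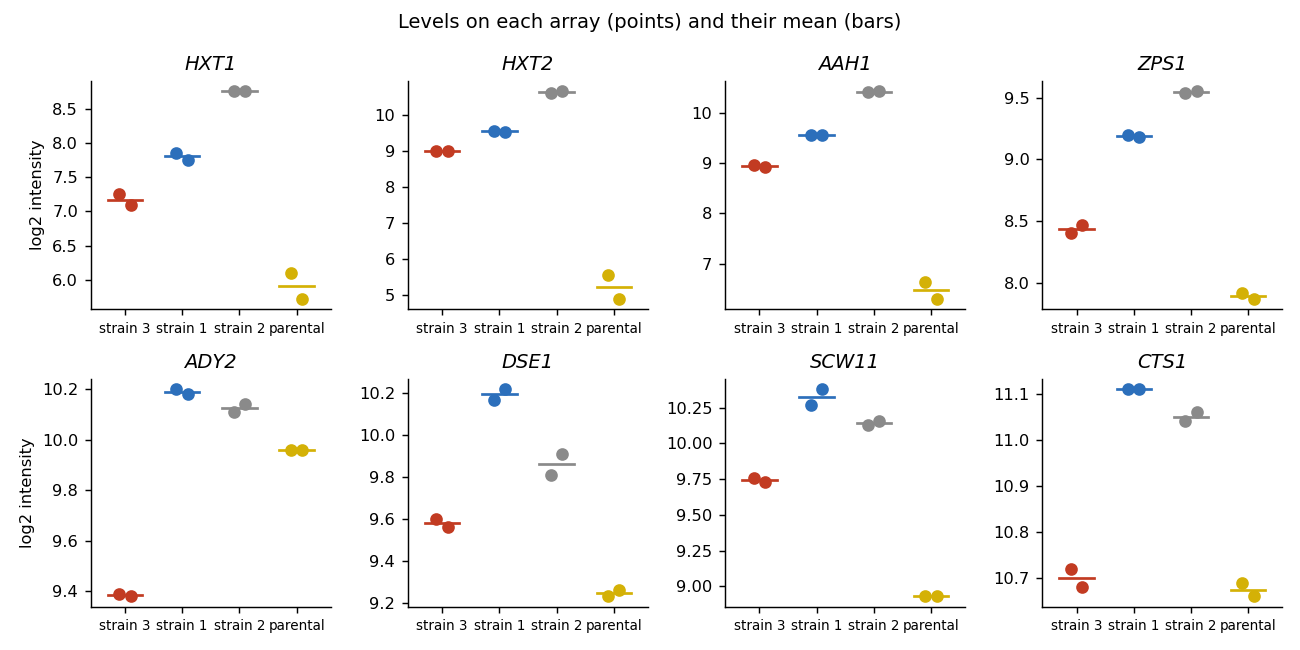
Log2 intensity (y axis, with a scale of its own in each panel) on each array (points, bars are means) for the glucose transporters HXT1 and HXT2, AAH1, ZPS1, ADY2 and the daughter cell genes DSE1, SCW11 and CTS1. These 8 genes were picked among those lower in strain 3, so both strain 3 arrays lie below both strain 1 arrays in every panel. The daughter cell group was split, with 13 of 37 genes higher and 12 lower.

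Cyclin and cell cycle factor genes were higher in 13 of 36 and lower in 3, against 33.1% and 24.4% of all genes. Length-adjusted, 12 were higher and 3 lower. The G1 cyclin gene CLN3 was higher by 0.61. Its call was lost when length-adjusted (adjusted p = 0.0759 in limma) and with any of the 4 arrays left out, where the difference was 0.52 to 0.70. The SD between the parental arrays, which enter the fit, was 0.44, against 0.038 in strain 3 and 0.13 in strain 1. The transcription factor genes MCM1 and XBP1 were higher by 0.63 each. Replication licensing genes were higher in 9 of 26 and lower in 1; length-adjusted, 3 were higher and 2 lower. ORC6, of the origin recognition complex, was lower (-0.35) and MCM7 higher by 0.34. Histone genes were lower in 5 of 10 with none higher, but these are short genes and the length-adjusted counts were 4 higher and 1 lower. CSE4, the centromeric histone, was lower in both (-0.41 and -0.24). Meiosis genes were higher in 11 of 36 and lower in 8, near the shares over all genes as measured (33.1% and 24.4%). Length-adjusted, 8 were higher and 8 lower. Among them IME1, the master activator, was higher by 0.49, and SPO11 was lower (-0.49). Telomere-proximal seripauperin and COS genes were higher in 7 of 24 and lower in 3; length-adjusted, 12 were higher and 1 lower, with COS12 higher by 0.60.

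Markers of strain identity went in part against the labelled background, in both strains. BY4742 lacks LYS2, yet LYS2 stood at 11.51 and 11.56 in strain 3 and at 11.31 and 11.34 in strain 1. MET17, which BY4742 carries, was at background in strain 3, at 4.03 and 3.91, and at 4.41 and 3.88 in strain 1. URA3 was at background in both strains, and HIS3 (12.86 and 12.82 in strain 3, 12.91 and 12.90 in strain 1) and LEU2 did not pass the test as measured. HIS3 passed with opposite signs with each array centred (-0.12, adjusted p = 0.0234) and length-adjusted (0.12, adjusted p = 0.0181), and LEU2 passed after quantile normalization (-0.38, adjusted p = 0.0352). The a-factor gene MFA1, of the opposite mating type to BY4742, stood at 10.34 and 10.35 in strain 3, against 10.76 and 10.75 in strain 1, and HMRA1 was lower (-0.28), a call lost when length-adjusted (-0.08, adjusted p = 0.162). MFA2 differed by -0.11, MF(ALPHA)1 by -0.16 and MF(ALPHA)2 by -0.30, none of which passed as measured. MF(ALPHA)2 passed in fits to the 4 arrays of strains 3 and 1 (adjusted p = 0.00273) and to the 6 evolved arrays (0.0108), and MFA2 passed with each array centred (-0.17, adjusted p = 0.0304) or after quantile normalization (-0.19, 0.0202). The pheromone receptor genes moved apart: STE2, for alpha-factor, was higher by 0.38 and STE3, for a-factor, lower (-0.37). HMLALPHA1, the alpha mating type regulator, was lower (-0.31), a call lost without strain 3 replicate 1 (adjusted p = 0.123), strain 1 replicate 1 (0.124) or strain 1 replicate 2 (0.0725) and when length-adjusted (0.39). In the mating lists, 2 of 7 a-specific genes were higher and 2 lower, 1 of 5 alpha-specific genes was higher and 2 lower, and 3 of 17 haploid-specific genes were higher and 5 lower. Length-adjusted, the counts were 2 and 2, 1 and 1, and 2 and 5 in the same order. SAG1, alpha-agglutinin, was higher by 0.52, ASG7 lower (-0.59) and SST2, which desensitises the pheromone response, higher by 0.65. Against the parental strain, MFA1 was lower in strains 3 and 1 (-2.01 and -1.60). MFA2 (-5.60 and -5.48) and STE2 (-2.21 and -2.59) were lower too, while the a-specific STE6 was higher (0.47 and 0.17). HMLALPHA1 (3.12 and 3.43) and MF(ALPHA)1 (1.47 and 1.63) were higher, whereas SAG1 was not (0.03 and -0.49). The mating type of the strains was not tested.

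Chromosome medians lay between 0.00 on chromosome III and 0.06 on chromosome I, against 0.04 over all genes, and medians of 4 successive stretches of each chromosome lay between -0.12 and 0.14. Strain 2 placed the 3132 called genes as follows; the tests share arrays, so the counts are not independent. Strain 2 differed from strain 1 and not from strain 3 in 1516 (48.4%) and from strain 3 and not from strain 1 in 555 (17.7%). It differed from both in 628 (20.1%) and from neither in 433 (13.8%). Over all genes, 32.0% were called between strains 3 and 2 and 52.7% between strains 2 and 1. HXT1 and HXT2 belonged to the genes in which strain 2 differed from both, with strain 3 minus strain 2 differences of -1.60 and -1.62 and strain 2 minus strain 1 differences of 0.95 and 1.09. Of these called genes, 2241 (71.6%) differed from the parental strain in the same direction in both strains 3 and 1, and 129 (4.12%) in opposite directions; 84.1% of all genes were called against the parental strain for strain 3 and 84.5% for strain 1.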

How the data were processed

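Biotin-labelled cRNA from 100 ng of total RNA was hybridised to Affymetrix yeast arrays, per the labels. The deposited intensity values were made by the authors with RMA, per the submitters' processing notes; RMA corrects background, normalises quantiles and summarises probes, with a version not given in the sources used here. These deposited values were linear, and log2 was taken here. Of 10928 probe sets, 5498 had 1 S. cerevisiae gene in the platform annotation, giving 5449 genes; for the 47 genes with several, the probe set with the highest mean was used. Gene names and coding lengths, which include any intron, came from the R64 annotation table. A gene was at background at or below the 95th percentile of 1746 probe sets of another yeast on both arrays of a strain. No depth applies to arrays, and their number limits the precision.

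A limma 3.58.1 model (R 4.3.3) of all 8 arrays had a coefficient for each group, with 4 residual degrees of freedom and a prior of 2.52. The spread of a gene was pooled over all groups, so parental arrays that lie apart enlarge the standard error of strain 3 minus strain 1. P-values were adjusted by Benjamini-Hochberg over all 5449 genes, and adjusted p under 0.05 is the call. Exact tests are not given, since 2 arrays set against 2 allow no p under 0.333. The fit was tested on simulated data. Named genes are, among genes called with arrays that do not overlap and above background in at least 1 strain, the 14 that rose most and the 14 that fell most, up to 4 called members of each of 61 gene lists, and all hexose transporters and identity markers. The members and lists were chosen with earlier results of these data known. Alternatives covered the arrays in the fit, a replicate term, normalization, a log offset, a filter, probe sets, variance moderation, each array left out, and, chosen after the data were seen, removal of each array's trend with coding length (lowess, span 0.3). Replicate numbers did not pair arrays: deviations correlated at 0.025 between strains 3 and 1.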

Additional observations from a re-analysis of the deposited data

Results flagged for a closer look

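NFI1, PRP16 and HTL1 moved away from the parental strain in opposite directions in strains 3 and 1. They were among 129 called genes (4.12%) that were called against the parental strain in opposite directions. Strain 3 minus strain 1 was 0.76 for NFI1, -3.51 for PRP16 and -0.92 for HTL1, all 3 called in limma (adjusted p = 0.000308, 3.33e-08 and 0.000308). For NFI1, strain 3 minus parental was 0.38 (adjusted p = 0.00049) and strain 1 minus parental -0.38 (adjusted p = 0.000546). For PRP16 the same differences were -0.41 (adjusted p = 1.77e-05) and 3.10 (adjusted p = 7.83e-09), and for HTL1 -0.59 (adjusted p = 0.000164) and 0.32 (adjusted p = 0.0039). The differences from the parental strain share its 2 arrays.

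Control probe sets outside the tested genes also differed. Strain 3 minus strain 1 was 0.97 for 5.8S ribosomal RNA and 0.60 for the 3′ probe set of 25S ribosomal RNA, whereas the 5′ set of 25S gave 0.03. The part of these in the other differences was not tested.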

How the results depend on the processing

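The count of 3132 called genes was 3016 under quantile normalization, 3090 with each array centred on its median, 3058 with the replicate block, and 2340 to 2386 with 1 of the 4 arrays left out. Replicate numbers did not pair the arrays. Centring turned the share of higher calls to 44.3%, against 57.6% as reported, and quantile normalization to 49.6%. Removing the length trend left 843 genes called lower, 64 of at least 1.5-fold and 941 in which strain 2 differed from strain 1 and not from strain 3; the 1.5-fold count was 65 with 16 added before log2. The 2-fold count was 2 under quantile normalization, centring and removal of the length trend, and 1 to 2 with an array left out. With the 6 evolved arrays only, strain 2 differed from both in 1180 and from neither in 268. With an array left out, genes in which strain 2 differed from strain 3 and not from strain 1 numbered 253 to 506, and from both 220 to 352. Without the length trend the differences of XPT1 (0.04), HPT1 (0.05), HHT2 (0.03) and HHT1 (0.04) changed sign and were not called; as measured they were -0.15, -0.13, -0.17 and -0.17. In that setting 33 of 246 called named genes, these 4 included, lost their call, and 19 to 20 did so with an array left out. The cause was not tested. With 2 arrays a strain, small differences between genes near background rest on few measurements.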
